A study of Mus musculus with 5 samples.

Results

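Kruppel-like factors (KLFs) are transcription factors that carry zinc fingers at the carboxyl end and bind CACCC and GC-rich DNA. The 9 genes described here, Klf2, Klf3, Klf4, Klf6, Klf7, Klf9, Klf10, Klf13 and Klf16, were picked by symbol from the 24419 gene rows of the deposited table. They were grouped because Klf3 was higher in Sema3G-stimulated than in PBS-treated bone marrow-derived macrophages (BMMs), so the values of that contrast are given for them as a description. Where calls on these 9 genes are counted, the counts describe the same values and test nothing. BMMs of C57BL/6 mice were grown for 5 days with 50 ng/ml M-CSF, the macrophage growth factor, and all of them were then activated with 100 ng/ml LPS, a bacterial cell wall component. After this, 2 samples received PBS and 3 samples received 100 ng/ml recombinant Sema3G, a secreted class 3 semaphorin, for 18 h. The recombinant Sema3G of the study was an Fc-tagged protein purified from the supernatant of transfected 293T cells, and the labels name PBS alone as the control. The labels do not say whether the 5 samples came from separate cultures or mice, so the errors measure the spread between these samples, which may be technical.

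In macrophages, Klf2 and Klf4 are known as brakes on inflammatory gene expression, and Klf4 also as a factor of monocyte differentiation, whereas Klf6 is known to favour NF-kB-driven inflammatory genes. Klf3, together with Klf8 and Klf12, belongs to the repressors that recruit the corepressor CtBP. Klf9, Klf10, Klf13 and Klf16 belong to the KLFs that recruit the corepressor Sin3A, and Klf7 is a close relative of Klf6.

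The promoters of 7 of the 9 genes were matched by symbol in a RefSeq table (GRCm38.p6), which gives 250 bases before and 50 bases after each start. Klf10 and Klf16 are named only. Shown are those of Klf3, of Klf6, the other gene whose groups did not overlap, and of Klf2, the gene with the lowest fold change of the 9. Capitals mark each CACCC or its reverse complement GGGTG, the letters that KLFs are known to bind.
Klf3, chr5:64803271-64803570, plus strand: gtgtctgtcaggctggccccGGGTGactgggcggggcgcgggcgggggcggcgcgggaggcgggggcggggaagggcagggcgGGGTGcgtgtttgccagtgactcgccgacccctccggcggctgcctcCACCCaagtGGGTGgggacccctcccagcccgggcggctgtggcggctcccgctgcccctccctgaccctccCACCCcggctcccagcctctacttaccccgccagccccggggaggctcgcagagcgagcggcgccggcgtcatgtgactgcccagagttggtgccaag
Klf6, chr13:5861239-5861538, plus strand: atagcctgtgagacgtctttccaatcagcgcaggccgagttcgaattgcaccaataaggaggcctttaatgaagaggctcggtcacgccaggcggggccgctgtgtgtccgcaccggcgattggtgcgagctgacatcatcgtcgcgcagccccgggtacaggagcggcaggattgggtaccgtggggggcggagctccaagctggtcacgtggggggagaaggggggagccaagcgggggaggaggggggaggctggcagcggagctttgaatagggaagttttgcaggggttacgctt
Klf2, chr8:72318812-72319111, plus strand: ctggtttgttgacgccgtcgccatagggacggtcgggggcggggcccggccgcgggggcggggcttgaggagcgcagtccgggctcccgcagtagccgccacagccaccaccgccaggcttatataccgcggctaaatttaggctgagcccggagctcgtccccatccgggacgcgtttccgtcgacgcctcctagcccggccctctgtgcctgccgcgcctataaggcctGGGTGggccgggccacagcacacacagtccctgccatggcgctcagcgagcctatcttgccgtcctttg
The Klf3 promoter held 5 matches to CACCC on the 2 strands together, at positions -230, -167, -120, -111 and -48 from the start. Of 32851 promoters of the same length, 57.5% held at least 1 match and 1.02% held 5 or more. Klf7 had 3 matches, Klf2, Klf9 and Klf13 had 1 each, and Klf4 and Klf6 had 0. GC boxes (CCGCCC or GGGCGG, found in 35.7% of all promoters) were matched 6 times in the Klf3 promoter, and 1 of its CACCC matches overlapped one of them. G and C made up 76.7% of the Klf3 window, against 63.0% for Klf6, 69.3% for Klf2 and a median of 52.7% over all promoters. CCAAT or ATTGG, present in 37.4% of promoters, was matched 4 times in Klf6, 3 times in Klf9 and 2 times in Klf13, and not in the other promoters. TATAAA or TTTATA, present in 13.6% of promoters, was matched in 0 of the 7. Such matches describe the letters of these windows and are no evidence of binding.

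The values are CPM, the unique molecular identifier (UMI) count of a gene scaled to the library total. UMIs were taken at the 3' end of each RNA, 1 per molecule, so that levels of different genes were compared as CPM without division by gene length. Library totals recovered from the CPM steps were between 1798469 and 2215855 UMIs, of which 77.6% and 75.6% lay on listed genes with PBS and 71.3%, 67.1% and 65.9% with Sema3G. Rn45s, the gene of the ribosomal RNA precursor, accounted for 1.01% and 3.19% of the totals with PBS and 6.31%, 7.40% and 7.88% with Sema3G. A count of 3, taken as the limit of detection, corresponded to between 1.35 and 1.67 CPM. Sema3G replicates 2 and 3 were the most alike pair of libraries, whose counts gave a chi-square statistic of 1.69 per degree of freedom, against 4.62 to 13.3 for the other pairs. The next most alike pair crossed the groups, PBS replicate 1 with Sema3G replicate 1 at 4.62, whereas the 2 PBS libraries were at 8.496 and Sema3G replicate 1 was at 6.10 and 6.67 with the other Sema3G libraries. Of the 6 macrophage markers, Csf1r and Adgre1 were lower in all Sema3G than in all PBS libraries (mean ratios 0.787 and 0.706), Itgam was higher (1.15), and Cd68 and Lyz2 overlapped. The sixth, Mertk, was also higher, yet at most 2.78 CPM. Their part in the results was not tested. The 6 lymphoid markers were at 0 in all libraries. The summed level of the 6 stromal and endothelial markers was 47.3 and 20.3 CPM with PBS and between 19.0 and 37.8 CPM with Sema3G. Of this, Pecam1 gave 28.6 and 13.4 CPM with PBS and 27.2, 9.93 and 17.5 CPM with Sema3G. Pdgfra and Cdh5 had at most 1 UMI in any library, and Col1a1, Col1a2 and Dcn at most 9.34 CPM. Markers of neutrophils, of dendritic cells, of mast cells and basophils and of erythroid cells summed to at most 2.68, 2.22, 0.461 and 2.20 CPM in any library. In such bulk samples, fewer cells of a type and less RNA per cell cannot be told apart.

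Klf3 (ENSMUSG00000029178.14, chromosome 5, 64803388 to 64832901 on the plus strand of GRCm38) is a broadly expressed repressor of transcription. It had 75 and 89 UMIs with PBS, and 177, 366 and 358 UMIs with Sema3G. In CPM, these were 41.2 and 47.6 with PBS, and 98.4, 165 and 165 with Sema3G. Sema3G replicate 1 was the lowest of its group, yet still above both PBS libraries, so the groups did not overlap. The Sema3G mean, 143 ± 38.5 CPM (SD, n = 3), was 3.22 times the PBS mean, 44.4 ± 4.55 CPM (SD, n = 2). On the log2(CPM + 1) scale the difference was 1.63 (standard error 0.23, 95% interval 1.15 to 2.11 from limma), at rank 61 of the 10088 genes tested. The median difference of all tested genes was -0.22, and Klf3 lay 1.85 above it. Like Klf3, the Rn45s share was lowest in PBS replicate 1, higher in PBS replicate 2 and Sema3G replicate 1, and highest in Sema3G replicates 2 and 3. With CPM rescaled to the listed genes without Rn45s, the log2 fold change of Klf3 was 1.92. With the Rn45s share as a term of the model, an alternative chosen after seeing the data, it was 0.41 with a standard error of 0.52, and the adjusted p from limma was no longer below 0.05. Between-group differences made up 89.5% of the variance of that share, and the model leaves 2 residual degrees of freedom.

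**Figure D1:**
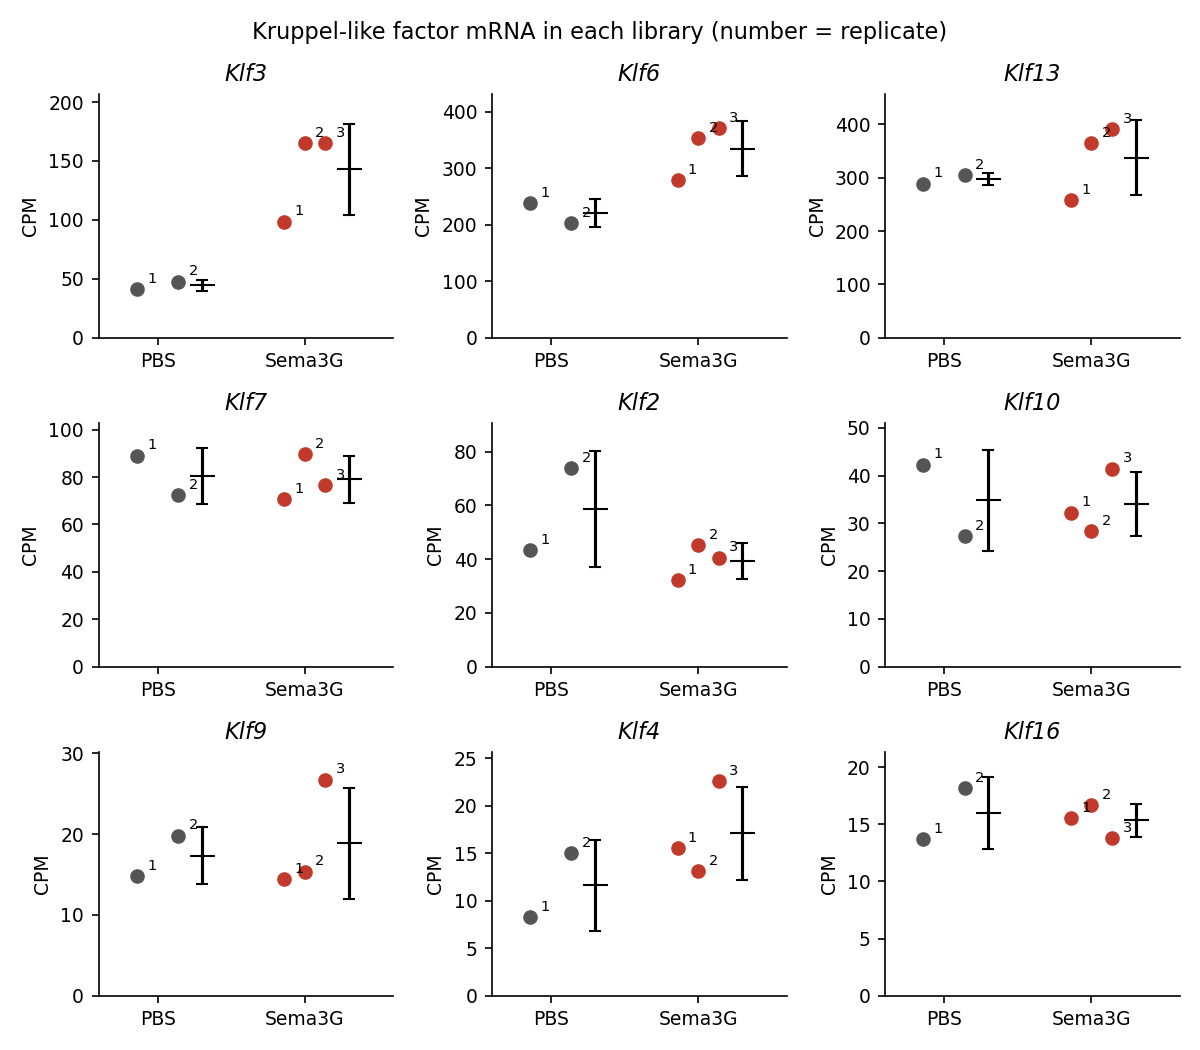
Levels of the 9 Kruppel-like factor genes in each library. The vertical axes give CPM from 0, the grey points are the 2 PBS libraries, the red points the 3 Sema3G libraries with their replicate numbers, and the black bars mean ± SD. Klf3 and Klf6 are the genes whose groups do not overlap, with Klf3 at 41.2 and 47.6 CPM with PBS and from 98.4 to 165 CPM with Sema3G.

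All 9 genes averaged 1 CPM or more and entered the limma fit. At an adjusted p below 0.05 from limma, 1 of the 9 was called, Klf3, against 1.8% of all genes tested, or 182 genes. Of these 160 were higher (1.59% of the genes tested) and 22 lower (0.218%). With edgeR's quasi-likelihood test 2 of the 9 were called, Klf3 and Klf6, against 4.1% of the 8144 genes it tested. The limma calls were 322 higher and 3 lower with TMM-scaled CPM, and 486 higher and 1 lower with CPM rescaled to the listed genes without Rn45s. The groups did not overlap, with Sema3G higher, in 2 of the 9, against 11.9% of all genes tested, and with Sema3G lower in 0 of the 9, against 26.5%. In either direction, that background was 38.4%. Klf3 was picked because it was higher in this contrast, so its call was fixed by the choice and nothing is read from these counts. Leaving Klf3 aside, the other 8 had a median log2 fold change of 0.031, and Klf3 lay 1.597 above that. The median of the 8 was 0.23 with TMM-scaled CPM and 0.31 with CPM rescaled to the listed genes without Rn45s. With 1 library left out it was between 0.0078 and 0.17. It was -0.59 with the Rn45s share as a term of the model.

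Among the genes of the activating KLFs, Klf6 came nearest to Klf3. Klf6 (chromosome 13, 5861482 to 5870394, plus strand) had 433 and 379 UMIs with PBS and 502, 784 and 806 UMIs with Sema3G, or 238 and 203 CPM against 279, 354 and 372 CPM. Every Sema3G library lay above both PBS libraries, by less than for Klf3. The Sema3G mean, 335 ± 49.0 CPM (SD, n = 3), was 1.52 times the PBS mean, 220.4 ± 24.8 CPM (SD, n = 2), and the log2 fold change was 0.59 (standard error 0.19, 95% interval 0.192 to 0.997). It was 0.80 with TMM-scaled CPM.

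Klf2 (chromosome 8, 72319033 to 72321656, plus strand) was the gene with the lowest fold change. It had 79 and 138 UMIs with PBS and 58, 100 and 88 UMIs with Sema3G, which is 43.4 and 73.9 CPM against 32.2, 45.1 and 40.6 CPM. PBS replicate 2 stood above the other 4 libraries, while PBS replicate 1 lay within the range of the Sema3G libraries, so the groups overlapped. The log2 fold change was -0.53 (standard error 0.25, 95% interval -1.05 to -0.011). It was -0.15 without PBS replicate 2 and -0.91 without PBS replicate 1. It was -0.33 with TMM-scaled CPM (standard error 0.26), -0.25 with CPM rescaled to the listed genes without Rn45s (standard error 0.26) and -2.11 with the Rn45s share as a term of the model.

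Klf4 (chromosome 4, 55527143 to 55532466, minus strand) was scarce. It had 15 and 28 UMIs with PBS and 28, 29 and 49 UMIs with Sema3G, and its groups overlapped, at 8.24 and 15.0 CPM against 15.6, 13.1 and 22.6 CPM. Its log2 fold change was 0.54 with a wide 95% interval, -0.16 to 1.24, and it was 0.14 without PBS replicate 1 and 0.93 without PBS replicate 2. It was -1.076 with the Rn45s share as a term of the model, which also turned the signs of Klf9 (-1.34), Klf13 (-0.67), Klf7 (0.22) and Klf10 (0.63). Klf7 (chromosome 1, 64029447 to 64122282, minus strand) was at 89.0 and 72.3 CPM with PBS and at 70.6, 89.8 and 76.5 CPM with Sema3G. The 2 groups covered nearly the same range, and the log2 fold change was -0.029 (95% interval -0.45 to 0.39). It was 0.17 with TMM-scaled CPM. Leaving out PBS replicate 1 gave 0.12, and leaving out PBS replicate 2 gave -0.18.

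Klf13, Klf10, Klf9 and Klf16, the Sin3A-binding KLFs among the 9, had overlapping groups. Klf13 (chromosome 7, 63886351 to 63938915, minus strand), a regulator of the chemokine gene Ccl5 in T cells, was the most abundant of the 9 with PBS. It was at 289 and 306 CPM with PBS and at 257, 365 and 391 CPM with Sema3G, where replicate 1 lay below and replicates 2 and 3 above both PBS libraries. Its log2 fold change was 0.16 (95% interval -0.26 to 0.59). It was 0.37 with TMM-scaled CPM, 0.35 without Sema3G replicate 1, 0.095 without Sema3G replicate 2 and 0.045 without Sema3G replicate 3. Klf10 (chromosome 15, 38291463 to 38300706, minus strand), a TGF-beta-induced gene, was at 42.3 and 27.3 CPM with PBS and at 32.2, 28.4 and 41.5 CPM with Sema3G. The 3 Sema3G libraries lay between the 2 PBS libraries, with a log2 fold change of -0.015 (95% interval -0.55 to 0.52) that was 0.18 with TMM-scaled CPM. Leaving out PBS replicate 1 gave 0.29, and leaving out PBS replicate 2 gave -0.32. Klf9 (chromosome 19, 23141226 to 23168134, plus strand), which is induced by glucocorticoids, was at 14.8 and 19.8 CPM with PBS and at 14.5, 15.3 and 26.7 CPM with Sema3G. Only Sema3G replicate 3 lay above the PBS range, and the log2 fold change was 0.076 (95% interval -0.57 to 0.72), or -0.19 without that library. It was 0.27 with TMM-scaled CPM, -0.12 without PBS replicate 1 and 0.27 without PBS replicate 2. Klf16 (chromosome 10, 80567124 to 80577321, minus strand) was at 13.7 and 18.2 CPM with PBS and at 15.6, 16.7 and 13.8 CPM with Sema3G. All its Sema3G libraries lay within the PBS range, with a log2 fold change of -0.043 (95% interval -0.65 to 0.56) that was 0.15 with TMM-scaled CPM. Without PBS replicate 1 it was -0.23, against 0.15 without PBS replicate 2. For these 4 genes the intervals include changes of up to 0.72 upward and -0.65 downward on the log2 scale, so they do not show that the levels were equal.

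Within the family, shares of UMIs do not depend on the scaling of the libraries. Klf3 held 75 of the 1419 UMIs on the 9 genes in PBS replicate 1, or 5.29% (95% exact binomial interval 4.18% to 6.58%), and 89 of 1462 in PBS replicate 2, or 6.09% (4.92% to 7.44%). With Sema3G its share was 12.1% (10.4% to 13.8%) of 1467 UMIs, 15.1% (13.7% to 16.6%) of 2421 UMIs and 14.4% (13.0% to 15.8%) of 2494 UMIs. The 3 Sema3G intervals lay above both PBS intervals, and they cover counting error only. The mean share of Klf3 was 5.69% ± 0.567 (SD, n = 2) with PBS and 13.8% ± 1.59 (SD, n = 3) with Sema3G. Klf6 had 28.2% ± 3.25 and 33.0% ± 1.080, whereas Klf13 had 38.1% ± 1.41 and 33.0% ± 1.29, and Klf7 had 10.3% ± 1.54 and 7.84% ± 1.05. Klf2 had 7.503% ± 2.74 with PBS and 3.87% ± 0.309 with Sema3G, and all 3 of its Sema3G shares, from 3.53% to 4.13%, were below its PBS shares of 5.57% and 9.44%. Shares sum to 100%, so a larger share of Klf3 lowers the others. Of the UMIs on the 8 genes without Klf3, Klf13 held 39.1% and 41.6% with PBS and 35.9%, 39.4% and 39.7% with Sema3G, and Klf7 held 12.1% and 9.83% against 9.84%, 9.68% and 7.77%, so that the groups of both overlapped. On that base Klf2 held 5.88% and 10.1% with PBS and 4.50%, 4.87% and 4.12% with Sema3G, and Klf6 held 32.2% and 27.6% against 38.9%, 38.2% and 37.7%. On this base the groups of Klf2 and Klf6 did not overlap, whereas in CPM those of Klf2 did. In CPM, 38.4% of all genes tested had groups that did not overlap, so nothing is read from this count. Klf3 UMIs per Klf2 UMI were 0.949 and 0.645 with PBS and 3.05, 3.66 and 4.07 with Sema3G. Against Klf6 the same ratio was 0.173 and 0.235 with PBS and 0.353, 0.467 and 0.444 with Sema3G. The summed level of the 9 genes was 780 and 783 CPM with PBS and 816, 1093 and 1150 CPM with Sema3G. Without Klf3, the sum was 738 and 735 CPM with PBS and 717, 927 and 985 CPM with Sema3G, so that Sema3G replicate 1 then lay below both PBS libraries.

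**Figure D2:**
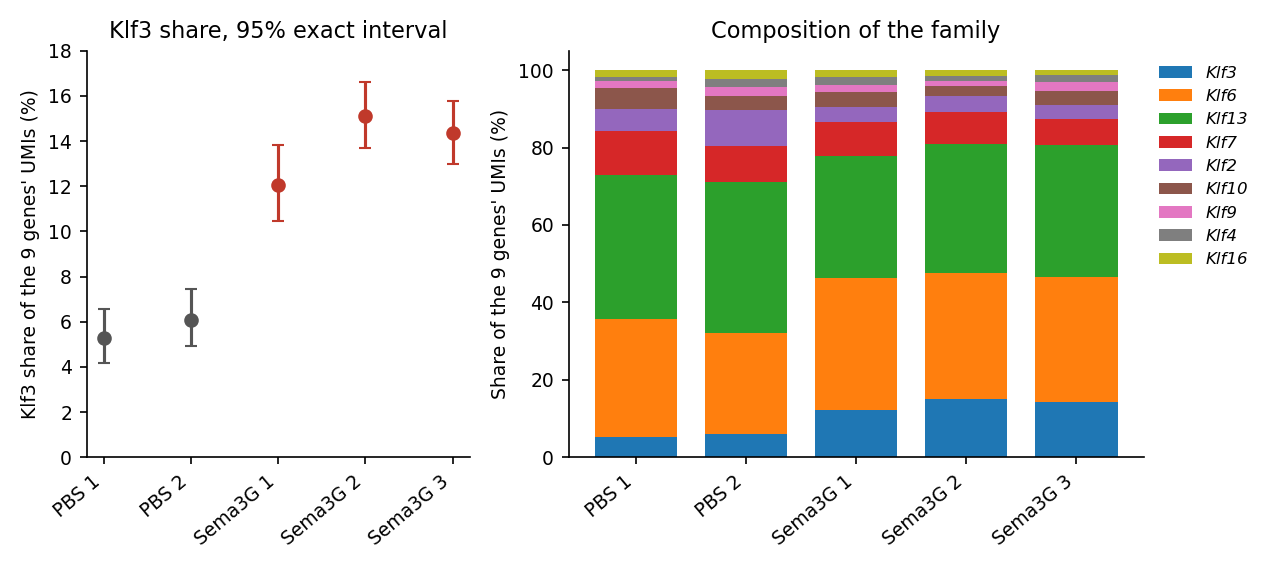
Composition of the UMIs on the 9 Kruppel-like factor genes in each library. The left panel gives the share of Klf3 in percent with its 95% exact binomial interval (grey PBS, red Sema3G), and the right panel stacks the shares of all 9 genes in percent. Klf3 took 5.29% and 6.09% with PBS and 12.1% to 15.1% with Sema3G.

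The order of the levels changed mainly through Klf3. With PBS, the order by mean CPM was Klf13, Klf6, Klf7, Klf2, Klf3, Klf10, Klf9, Klf16 and Klf4. The ranges of Klf13 and Klf6 were apart, as were those of Klf6 and Klf7 and those of Klf10 and Klf9. Klf7 overlapped Klf2, Klf2 overlapped Klf3 and Klf3 overlapped Klf10, and Klf9, Klf16 and Klf4 could not be ordered beyond their spread. With Sema3G, the order was Klf13, Klf6, Klf3, Klf7, Klf2, Klf10, Klf9, Klf4 and Klf16. Klf3 was then the third gene, with its range of 98.4 to 165 CPM below that of Klf6 (279 to 372 CPM) and above that of Klf7 (70.6 to 89.8 CPM). Klf13 and Klf6 overlapped with Sema3G, as did Klf2 and Klf10, and again Klf9, Klf4 and Klf16.

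The libraries of a group also differed from each other. Between the 2 PBS libraries, the ratio of replicate 2 to replicate 1 had a 95% exact binomial interval without 1 for 3 of the 9 genes. These were Klf2 at 1.70 (1.28 to 2.27), Klf10 at 0.645 (0.444 to 0.931) and Klf6 at 0.853 (0.741 to 0.981). With CPM rescaled to the listed genes without Rn45s the count was 2, since the interval of Klf6 was then 0.784 to 1.04. For Klf3 the ratio was 1.16 (0.841 to 1.59). With Sema3G, the ratio of replicate 2 to replicate 1 had an interval without 1 for 5 of the 9 genes, and that of replicate 3 to replicate 1 for 4. With the rescaled CPM these counts were 5 and 7. Klf3, Klf6 and Klf13 were in both counts. The first ratio was 1.68 (1.40 to 2.02) for Klf3, 1.27 (1.13 to 1.42) for Klf6, 1.42 (1.26 to 1.59) for Klf13, 1.40 (1.003 to 1.97) for Klf2 and 1.27 (1.013 to 1.602) for Klf7. Replicates 3 and 2 differed beyond counting error in Klf4, Klf9 and Klf10, with ratios of 1.73, 1.74 and 1.46, and the interval for Klf3 held 1, at 0.999 (0.861 to 1.16). With the rescaled CPM the count was 4, with Klf13 at 1.103 added. These intervals compare single libraries, not conditions. Over all 15 alternatives, the log2 fold change of Klf3 was between 0.41 and 1.92, and with 1 library left out between 1.504 and 1.87.

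**Figure D3:**
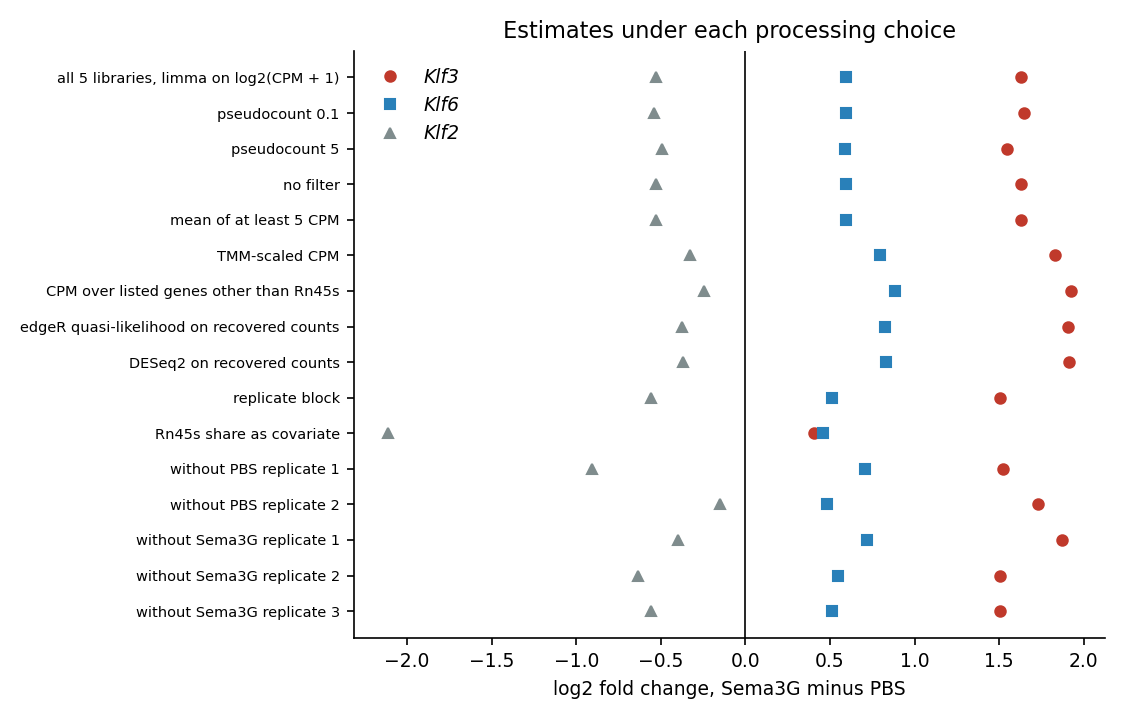
Estimated log2 fold change (Sema3G minus PBS) of Klf3 (circles), Klf6 (squares) and Klf2 (triangles) under each processing choice, 1 choice per line. Klf3 is between 1.504 and 1.92 except when the model holds the Rn45s share, which puts it at 0.41 and Klf2 at -2.11.

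Of the genes next to Klf3 on chromosome 5, 2 overlap it in GENCODE M21. C230096K16Rik spans 64804014 to 64805735 on the Klf3 strand, and Gm20033 spans 64708207 to 64804117 on the other. Neither symbol was among the listed genes. Both overlap only the start of Klf3, no further than 64805735, whereas Klf3 ends at 64832901 and UMIs were taken at the 3' end. The sources used here do not say whether counting used strand. UMIs of Klf3 and of these genes within the overlap therefore cannot be told apart. The nearest protein-coding genes on either side were Tbc1d1, at 451901 bp, and Tlr1, at 91777 bp. Tbc1d1, a Rab GTPase-activating protein gene, had 24 and 13 UMIs with PBS and 25, 18 and 25 UMIs with Sema3G. Tlr1, which encodes a Toll-like receptor for bacterial lipopeptides, had 45 and 21 UMIs with PBS and 23, 24 and 19 UMIs with Sema3G. The groups of both overlapped, with log2 fold changes of 0.17 for Tbc1d1 (limma, adjusted p = 0.811) and -0.60 for Tlr1 (limma, adjusted p = 0.320). Both depended on single PBS libraries. Tbc1d1 was 0.59 and Tlr1 -0.068 when PBS replicate 1 was left out, and -0.25 and -1.14 when PBS replicate 2 was left out. With the Rn45s share in the model, Tbc1d1 was 1.87 and Tlr1 1.55.

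The genes most like Klf3 in their pattern were found by the root-mean-square difference of centred log2(CPM + 1) values over the 5 libraries, among 6380 other genes that averaged 10 CPM or more. They were Ppp2r3c (0.102), a PP2A regulatory subunit gene, Ddx10 (0.116), an RNA helicase gene, Zfp36l2 (0.116), a gene of an mRNA decay factor, Bod1l (0.130), a gene of replication fork protection, and Akap9 (0.137), a gene of a centrosome and Golgi scaffold. Ppp2r3c had 12 and 18 UMIs with PBS and 33, 73 and 64 UMIs with Sema3G. Akap9 had 79 and 94 UMIs with PBS and 191, 305 and 343 UMIs with Sema3G, and Bod1l had 66 and 77 against 175, 279 and 284. They were chosen for this likeness, so their sharing the order of the libraries with Klf3 is no finding. No member of the family came as near. Klf6 was the nearest, with a difference of 0.541 at rank 313, and Klf2 the farthest, with 1.079 at rank 4227.

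**Figure D4:**
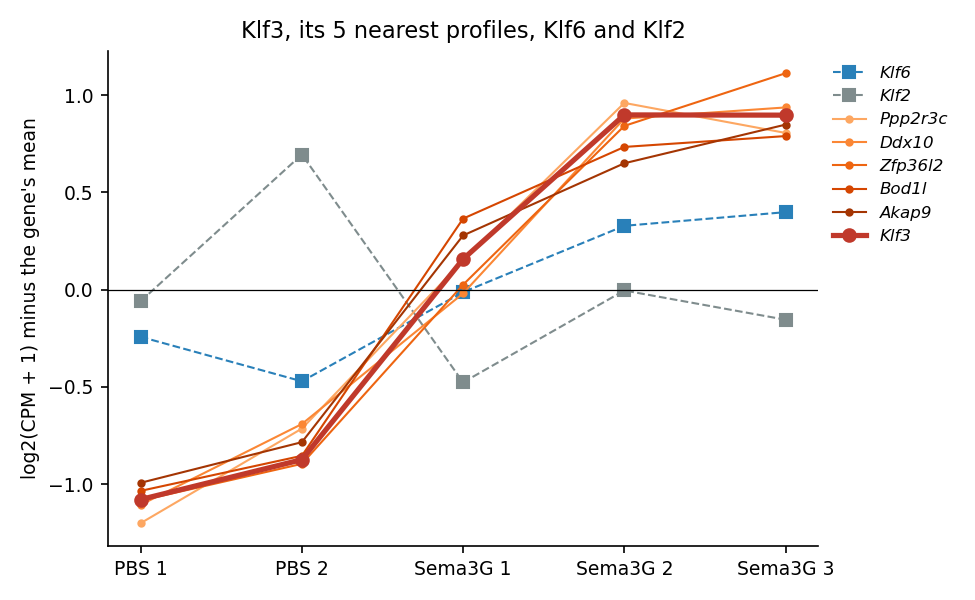
Centred log2(CPM + 1) of Klf3 (thick red), the 5 genes with the nearest profile (orange to brown), Klf6 and Klf2 (dashed) in the 5 libraries. Lines join the values of 1 gene and give no order among replicates. The 5 genes follow Klf3 within 0.102 to 0.137 (root-mean-square), whereas Klf6 moves less and Klf2 is highest in PBS replicate 2.

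The rest of the KLF family and its partners were read from lists of other genes. Of the 8 other KLF genes, 5 had 0 UMIs in all 5 libraries, namely Klf5, Klf12, Klf14, Klf15 and Klf17. Klf12 and Klf8 are the other CtBP-binding KLFs, and Klf8 had 1 and 0 UMIs with PBS and 1, 5 and 0 UMIs with Sema3G. Klf1, the erythroid KLF, had 1 and 0 UMIs with PBS and 5, 0 and 0 UMIs with Sema3G. Klf3 was therefore the only CtBP-binding KLF above the limit of 3 counts in all 5 libraries. Klf11 alone of these 8 entered the test, at 4.40 and 4.28 CPM with PBS and at 4.45, 5.87 and 5.07 CPM with Sema3G. Its groups were apart by less than 1 UMI, and limma did not call it (log2 fold change 0.19, adjusted p = 0.807).

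The SP factors are the closest relatives of the KLFs and bind GC boxes. Of 9 SP genes 4 were tested and 0 were called by limma, against 1.8% of all genes. At an unadjusted p below 0.05, 1 was higher and 0 were lower, where all genes gave 6.83% higher and 14.2% lower. At an adjusted p below 0.05 edgeR's quasi-likelihood test called 1, against 4.1% of all genes, and DESeq2 called 0, against 2.77%. The gene was Sp3, named after its values were seen, with 48 and 65 UMIs with PBS and 75, 121 and 128 UMIs with Sema3G. Its Sema3G libraries all lay above the PBS libraries, with a log2 fold change of 0.74 (limma, adjusted p = 0.105, 0.0447 from edgeR's quasi-likelihood test). The Rn45s share in the model turned Sp3 to -0.42. Sp1, the founding member of the SP family, was at 92.3 and 77.6 CPM with PBS and at 85.6, 81.7 and 81.1 CPM with Sema3G (log2 fold change -0.032, limma, adjusted p = 0.944). Its sign turned with TMM-scaled CPM (0.17) and when PBS replicate 1 was left out (0.092).

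The corepressors CtBP1 and CtBP2, which Klf3 recruits, are encoded by Ctbp1 and Ctbp2. Ctbp1 had 233 and 157 UMIs with PBS and 129, 139 and 129 UMIs with Sema3G, or 128 and 84.0 CPM against 71.7, 62.7 and 59.5 CPM. Both PBS libraries lay above the 3 Sema3G libraries. The log2 fold change, -0.68 with a standard error of 0.21, did not pass the test (limma, adjusted p = 0.105). It was called without PBS replicate 2 (limma, adjusted p = 0.0373) and without Sema3G replicate 1 (limma, adjusted p = 0.0447). Without PBS replicate 1 it was -0.38 (limma, adjusted p = 0.478), it was -0.48 with TMM-scaled CPM, and the Rn45s share in the model turned it to 0.54. With all 5 libraries as deposited, Ctbp1 lay -0.45 from the all-gene median. Ctbp2 was at 56.6 and 60.5 CPM with PBS and at 52.3, 46.9 and 43.3 CPM with Sema3G (log2 fold change -0.30, limma, adjusted p = 0.405). With TMM-scaled CPM this was -0.099, and with CPM rescaled to the listed genes without Rn45s -0.013. Over the list of 16 KLF cofactors, all tested, 0 were called by limma, against 1.8% of all genes. At an unadjusted p below 0.05, 2 were higher and 2 lower (6.83% and 14.2% of all genes). The quasi-likelihood test of edgeR called 1 (4.1% of all genes) and DESeq2 called 0 (2.77%). The median log2 fold change of the list was -0.084, against -0.22 for all genes tested. With TMM-scaled CPM these were 0.11 and -0.036, and with 1 library left out the median of the list was between -0.15 and -0.027. With the Rn45s share in the model the median was 0.33 for the list and 0.20 for all genes. The gene called by edgeR was Crebbp, which encodes a histone acetyltransferase and was named after its values were seen, with a log2 fold change of 0.50 (limma, adjusted p = 0.146, 0.0402 from edgeR's quasi-likelihood test).

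The kinase ERK5 and the MEF2 factors are known to induce Klf2 and Klf4, and FOXO1 to induce Klf2. Mapk7, the gene of ERK5, was at 31.9 and 24.6 CPM with PBS and at 20.02, 27.1 and 25.8 CPM with Sema3G, with overlapping groups (log2 fold change -0.21, limma, adjusted p = 0.653). Leaving out PBS replicate 1 gave -0.030, and leaving out PBS replicate 2 gave -0.39. With TMM-scaled CPM it was -0.012, and with CPM rescaled to the listed genes without Rn45s 0.073. Of the 11 genes of this list 10 were tested and 0 called by limma (1.8% of all genes). At an unadjusted p below 0.05, 1 was higher and 2 were lower (6.83% and 14.2% of all genes). The quasi-likelihood test of edgeR and DESeq2 each called 1 (4.1% and 2.77% of all genes). The list also holds Hdac4, Hdac5 and Hdac7, which are not among the inducers named above. Of the 2 lower genes, 1 was Hdac5, named after its values were seen (log2 fold change -0.48, limma, adjusted p = 0.182). It was -0.28 with TMM-scaled CPM. Foxo1, named after its values were seen, had 39 and 38 UMIs with PBS and 17, 31 and 29 UMIs with Sema3G. All its Sema3G libraries were below the PBS libraries, and it was not called (log2 fold change -0.74, limma, adjusted p = 0.172). It was -0.55 with TMM-scaled CPM, -0.47 with CPM rescaled to the listed genes without Rn45s and -1.21 with the Rn45s share in the model. The gene called by edgeR and by DESeq2 was Mef2a, named after its values were seen. It had 160 and 174 UMIs with PBS and 237, 307 and 307 UMIs with Sema3G. Its groups did not overlap (log2 fold change 0.60, limma, adjusted p = 0.0954, 0.0234 from edgeR's quasi-likelihood test and 0.0153 from DESeq2).

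Lgals3, the gene of galectin-3, is a gene that Klf3 is known to repress. It was at 2260 and 1710 CPM with PBS and at 1693, 1463 and 1356 CPM with Sema3G. The PBS libraries lay above all Sema3G libraries, though replicate 1 with Sema3G came close to PBS replicate 2, and the log2 fold change of -0.39 did not pass the test (limma, adjusted p = 0.340). It was -0.19 without PBS replicate 1, -0.59 without PBS replicate 2, -0.10 with CPM rescaled to the listed genes without Rn45s and 0.58 with the Rn45s share in the model. The value from all 5 libraries lay -0.17 from the median of all genes. Of the 15 reported targets of KLFs 13 were tested. Limma called 0 of them (1.8% of all genes), with 0 at an unadjusted p below 0.05 (6.83% higher and 14.2% lower of all genes). Neither edgeR's quasi-likelihood test (4.1%) nor DESeq2 (2.77%) called any. The list sets no direction for its genes, so its median does not speak to the activity of any KLF. That median log2 fold change was -0.26, against -0.22 for all genes tested. It was -0.064 with TMM-scaled CPM, 0.021 with CPM rescaled to the listed genes without Rn45s, -0.15 without Sema3G replicate 1 (all genes -0.27) and -0.11 without Sema3G replicate 3 (all genes -0.18).

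**Figure D5:**
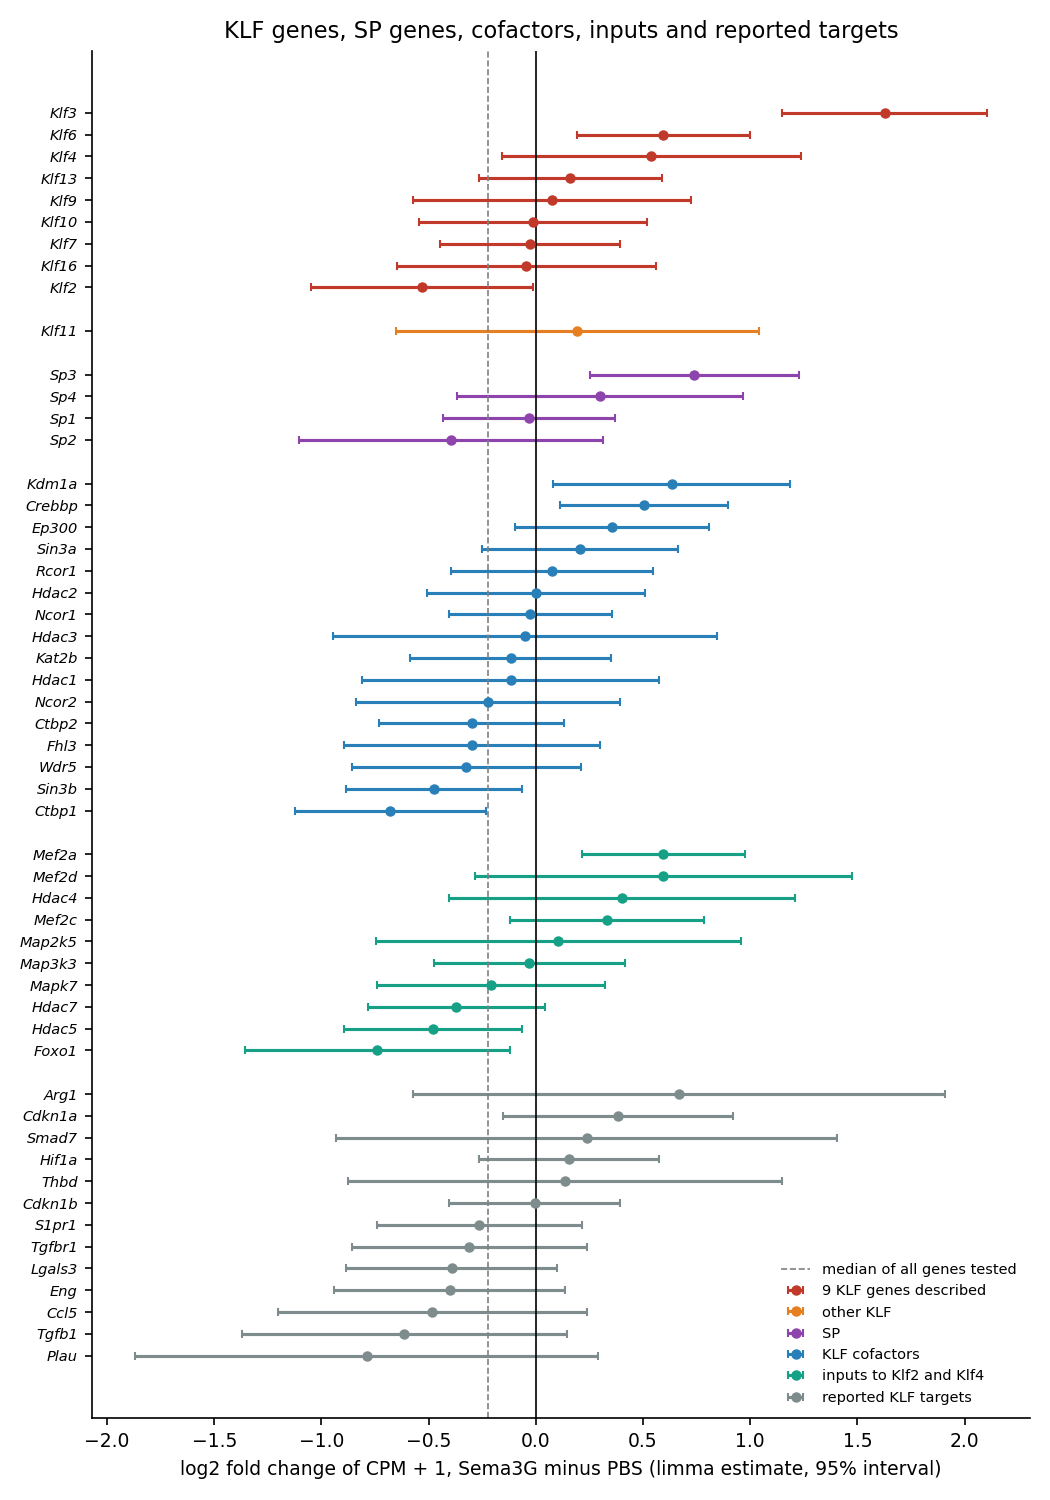
Estimated log2 fold change of CPM + 1 (Sema3G minus PBS) with the 95% interval from limma for each tested KLF gene and for the genes of the related lists. The dashed line is the median of all genes tested, -0.22. Klf3, at 1.63, stands to the right of the other genes drawn, and Plau is at the left end with -0.79.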

How the data were processed

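RNA of 2 PBS-treated and 3 Sema3G-stimulated BMM samples was prepared by the authors with a QuantSeq 3' kit with UMIs. The reads were mapped to mm10, UMIs were counted per gene with Strand NGS and values were normalized with edgeR (3.12 per the labels). Which gene annotation and filters they used is not given in the sources at hand. The table deposited by the authors holds CPM values beside p-values, q-values and a ranking of their own comparison, which were not used. UMI counts were recovered from the CPM steps (100% of values within 0.01 of a whole count). Depth was 1798469 to 2215855 UMIs per library. The 10088 genes averaging 1 CPM or more were fitted on the log2(CPM + 1) scale with limma (3.58.1, R 4.3.3, trended variance), and p-values were adjusted over all of them by Benjamini-Hochberg. Fold changes on this scale understate changes of low genes. edgeR (4.0.16) and DESeq2 (1.42.0) on recovered counts were alternatives. The exact binomial intervals of shares and ratios and the limit of 3 counts cover counting error only, whereas limma's intervals rest on the spread between samples. Gene models came from GENCODE M21 and promoters from RefSeq. The 9 genes and the lists of related genes were chosen with earlier results of these data known. Named are the 9 genes, list genes with an adjusted p below 0.05 or that define their list, Ctbp1, Ctbp2, Lgals3 and Mapk7, genes next to Klf3 and the 5 nearest profiles. The Rn45s covariate was added after seeing the data, and genes named after their values were seen are given as such.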

Additional observations from a re-analysis of the deposited data

How the results depend on the processing

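Klf3 kept its direction under all 15 alternatives. Its log2 fold change moved by more than the spread between replicates under 1 of them, the Rn45s share as a covariate. That value was 0.41, with 2 residual degrees of freedom, and the covariate was chosen after seeing the data. Leaving out 1 library gave 1.504 to 1.87. Not all of the 15 could move the value. Changing the filter leaves the estimate of a kept gene at 1.63, and the replicate block repeats the estimate without Sema3G replicate 3 (1.504). Klf3 was picked because it rose, so this tally is no support for its change. The number of the 9 genes called, 1, was 2 with TMM-scaled CPM, with CPM rescaled to listed genes without Rn45s, with edgeR's quasi-likelihood test, with DESeq2 and with the replicate block, and ranged from 1 to 2 with 1 library left out. The second gene was Klf6 in each case, also without Sema3G replicate 1. With the covariate the 1 gene called was Klf2, not Klf3. The number of all genes called, 182, was 108 with no filter, 325 with TMM-scaled CPM, 487 with CPM rescaled to listed genes without Rn45s, 334 with the quasi-likelihood test and 573 with the replicate block. Leaving out 1 library gave between 26 (Sema3G replicate 2) and 856 (Sema3G replicate 1), with 28 for Sema3G replicate 3 and 92 for PBS replicate 1. The calls were 160 higher and 22 lower, and 298 and 275 with the block, 98 and 53 with the covariate, and 303 and 553 without Sema3G replicate 1.

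The SP list, with 0 called, had 1 called with TMM-scaled CPM, with CPM rescaled to listed genes without Rn45s and with the quasi-likelihood test, and 0 to 1 with 1 library left out (Sp3 in each case, also without Sema3G replicate 1). The cofactor list, with 0, had 1 under these 3 (Crebbp) and under the replicate block (Ctbp1), and 0 to 1 with 1 library left out (Ctbp1). The list of inputs to Klf2 and Klf4, with 0, had 1 under these 4 and with DESeq2, and 0 to 1 with 1 library left out (Mef2a in each case, also without Sema3G replicate 1). The reported targets, with 0, had 3 with the covariate. These were Arg1 (log2 fold change -6.01, against 0.67 without the covariate), Ccl5 (3.04, against -0.48) and Cdkn1a (-1.72, against 0.38). The other KLF genes had 0 under all 15 alternatives. Of all genes tested, these settings called 3.22% (TMM-scaled CPM), 4.63% (CPM rescaled to listed genes), 4.1% (quasi-likelihood), 2.77% (DESeq2), 5.68% (replicate block), 1.5% (covariate) and 0.257% to 8.5% (1 library left out).

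The replicate block pairs replicates 1 and 2 of the groups, so that Sema3G replicate 3, which has no partner, does not enter the difference, and 1 residual degree of freedom is left. In the deviations from the group means, PBS and Sema3G replicates 1 correlated at 0.173 and replicates 2 at 0.111. PBS replicate 2 and Sema3G replicate 3, which share no number, correlated at 0.097. The deviations of the 2 PBS libraries mirror each other, so these values are not independent. The labels give no shared batch, so the paired samples share only a number. The cause was not tested for any of these changes. At this depth, Klf1 and Klf8, with fewer than 3 UMIs in 4 of 5 libraries, cannot be compared. A lone PBS library is taken to vary as much as the Sema3G libraries do.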
